A study of Drosophila melanogaster with 3 samples.

Results

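The cytochrome P450 genes of *Drosophila melanogaster* were examined in adult heads, as the 74 genes of a table of 17558 whose symbol is Cyp followed by digits, a letter and digits. The annotation held 75 such symbols, and *Cyp6a21* was not analysed here because it had no row in the table. The rule used the symbol alone and no measured value. It leaves out P450 genes with other names, given below beside the members, and the cyclophilins *Cyp1*, *Cyp40* and *Cypl*, which are not P450 enzymes. All 3 libraries came from heads of untreated wild-type adults kept at 25°C on apple-juice-based food, anaesthetised with CO2 and decapitated, and they form 1 group with replicates 1 to 3. The design text names the strain CantonS, whereas the methods of the study call w1118 wild type. The methods state that both male and female adults served in the study, but the share of each sex, the age and the number of heads per library are not given in the sources used here. With 1 group there was no contrast between conditions, so the values describe levels in heads and the spread between libraries. Nothing in the sources says that the replicates came from separate cultures, so this spread may be technical.

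P450 enzymes hold a haem group and insert 1 atom of oxygen into small hydrophobic molecules, which makes them reactive or more soluble. In insects they are grouped into clades by sequence. The CYP3 clade and many CYP4 members are known for the breakdown of insecticides and plant toxins, other members make or break down the steroid moulting hormone ecdysone, and a few work in cuticle hydrocarbon synthesis. Enzymes of the endoplasmic reticulum take electrons from cytochrome P450 reductase, and those of the mitochondrion take them from a ferredoxin. Because whole heads were pooled, fewer cells of a type and less RNA per cell cannot be told apart in any value below.

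Library totals lay between 6299265 counts in replicate 3 and 8332583 in replicate 1. Markers of the labelled tissue were abundant: all 5 photoreceptor genes were detected, with summed levels of 41463 to 44521 counts per 1000000 counts (CPM), as were the 4 neuronal genes in the table (3162 to 3736 CPM), all 5 glial genes (2744 to 2926 CPM), all 6 genes of the head fat body (20765 to 30277 CPM), all 5 genes of olfactory support cells (2719 to 3519 CPM), all 4 haemocyte genes (785 to 1102 CPM) and 4 muscle genes (4559 to 5601 CPM). Of the tissues that the cut could have carried over, gut, testis and ovary were near 0 for most of their markers, whereas Malpighian tubule and oenocyte lists were not. Of 6 gut genes, 1 was detected and 3 were at 0 in every library (2.22 to 27.8 CPM), and testis and ovary lists reached at most 3.40 and 0.136 CPM. Of 4 Malpighian tubule genes in the table, 2 were detected (130 to 148 CPM) and 2 were at 0, *Uro* among them. The oenocyte list reached 1563 to 1706 CPM with 3 of 4 genes detected, mostly from *Desat1*, which other tissues also express, and *eloF* had 0, 1 and 0 counts.

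Most P450 genes were transcribed in heads. Of the 74 members, 63 (85.1%) were detected, meaning at least 10 counts in sum over the libraries, against a background of 57.5% of all genes in the table and 69.3% of the 13684 protein-coding ones. Of the 11 others, 3 had no count at all and 8 had 1 to 9 counts. Just inside the limit lay *Cyp6a17* with 15 counts and *Cyp6d2* with 20, and just outside it *Cyp6a16* with 9 and *Cyp6a19* with 5. The median detected member stood at 10.2 CPM per kilobase of exon, against 12.8 for detected protein-coding genes. Together the members took 4204, 4273 and 3706 CPM in replicates 1, 2 and 3, a mean of 4061 ± 310 (SD, n = 3). Replicate 3 was the lowest of the libraries and also the shallowest.

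Levels between genes are compared per kilobase, since exon lengths ran from 1455 to 4171 bases. On this scale, 6 members lay over 100 CPM per kilobase, 26 over 10 and up to 100, 26 over 1 and up to 10, and 16 at or under 1. A minority of the genes held most of the counts. The single member with the most counts held 12.7% ± 0.345 of all family counts (SD, n = 3), the top 5 held 43.4% ± 0.644, the top 10 held 64.1% ± 0.194 and the top 25 held 88.3% ± 0.166.

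**Figure D1:**
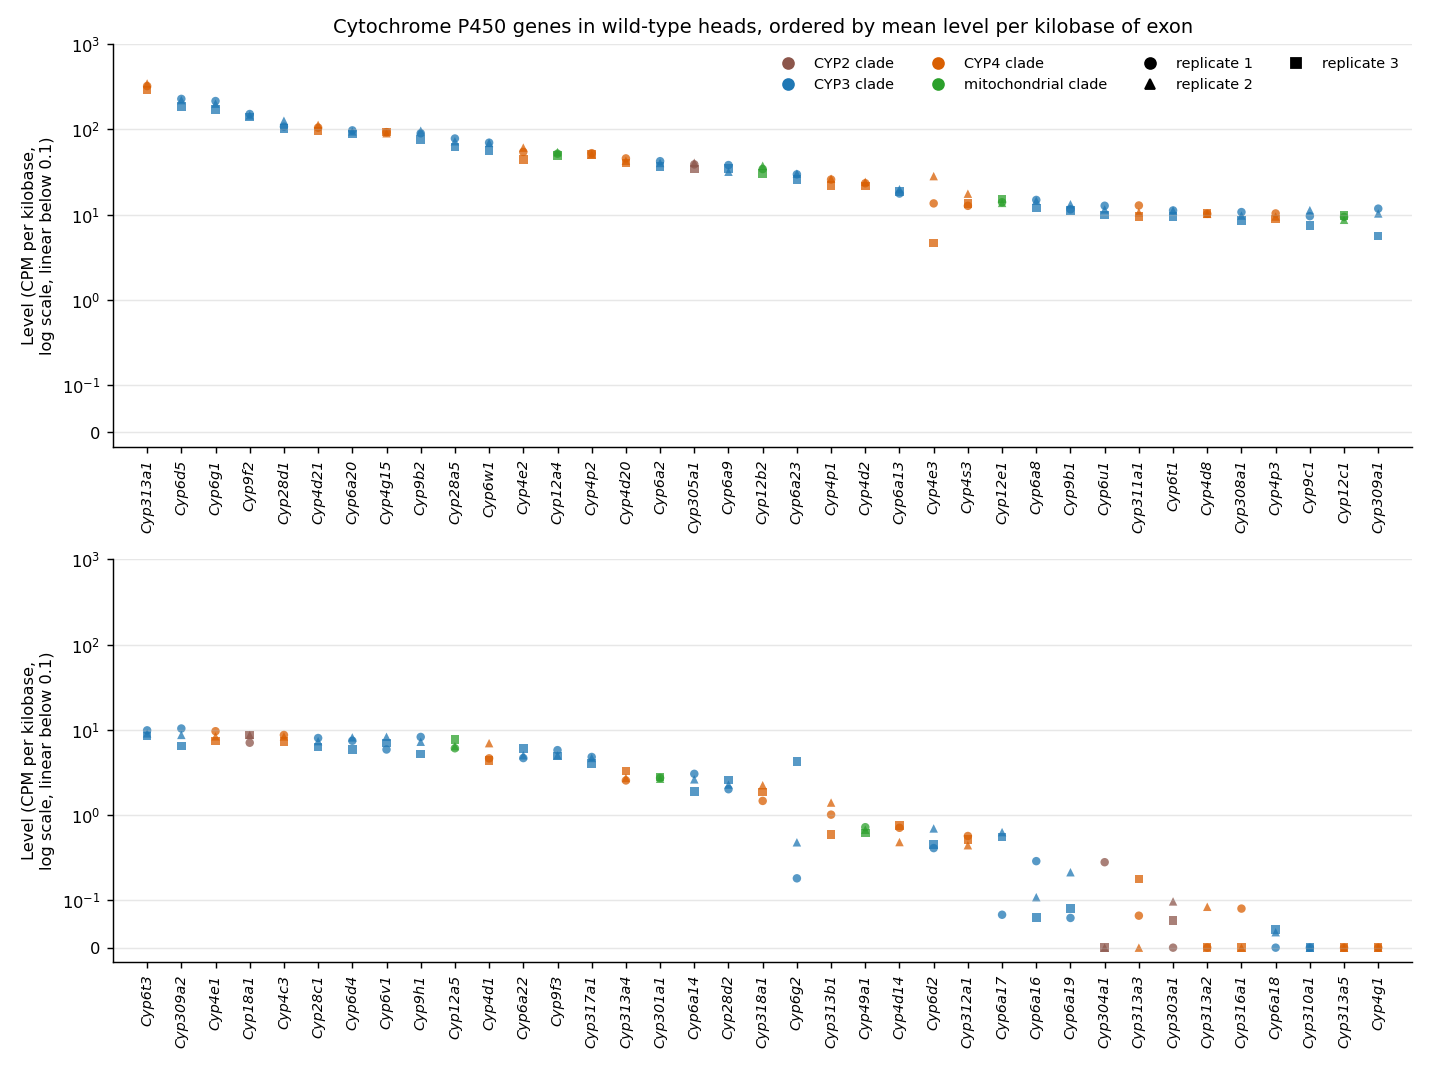
Level of each of the 74 P450 genes in CPM per kilobase of exon (vertical axis, log scale, linear below 0.1), ordered by mean level from left to right and top to bottom. Each gene has 3 points, 1 per replicate, coloured by clade. *Cyp313a1* leads at 290 to 344, and *Cyp310a1*, *Cyp313a5* and *Cyp4g1* end the row at 0 in every library.

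*Cyp313a1* (FBgn0038236, chromosome arm 3R, 14521049 to 14523064, plus strand), a CYP4 clade gene, had the highest level. It had 521, 559 and 471 CPM in replicates 1, 2 and 3, which is 318.5 ± 27.2 CPM per kilobase (SD, n = 3). On that scale, 249 detected genes lay above it, and 97.5% of detected genes lay below. The other genes of its subfamily were low. Of the 5 Cyp313a genes, 2 were detected, and the other detected one, *Cyp313a4*, averaged 4.70 ± 0.624 CPM, or 2.84 per kilobase. *Cyp313a5*, *Cyp313a2* and *Cyp313a3*, neighbours on arm 3R (12232794 to 12239266), had 0, 1 and 3 counts in sum over all libraries.

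*Cyp6d5* and *Cyp6g1* followed in the order per kilobase. *Cyp6d5* (FBgn0038194, 3R, 14029228 to 14031483, plus strand), a CYP3 clade gene known to be induced by xenobiotics, had 372, 360.0 and 304.8 CPM, or 211 ± 21.9 CPM per kilobase. *Cyp6g1* (FBgn0025454, 2R, 12185667 to 12188431, plus strand), known for DDT and neonicotinoid resistance when overexpressed, had 444, 414 and 355 CPM, or 195 ± 21.9 CPM per kilobase. Per kilobase, *Cyp6d5* lay above *Cyp6g1* within each library (227, 220 and 186 against 214, 200 and 171), though their ranges over the libraries overlapped. *Cyp313a1* lay above both in all 3 libraries. *Cyp9f2* (FBgn0038037, 3R, 12403340 to 12406028, minus strand) came next with 265, 256 and 245 CPM, or 145 ± 5.72 per kilobase, and overlapped neither *Cyp6g1* above it nor *Cyp28d1* below it. Further down, most neighbours overlapped in their ranges over the libraries: of the 24 neighbouring pairs among the 25 highest members, 18 overlapped and 6 did not. Such an overlap ignores that both genes were measured in the same library. *Cyp28d1* and *Cyp4d21* overlapped, for example, yet *Cyp28d1* was higher in each library (107, 126 and 102 against 105, 112 and 95.3).

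Members listed for xenobiotic metabolism summed to 1393 ± 130 CPM (SD, n = 3), beside 4061 for the whole family. The list was chosen with earlier results of these data known, so a high sum may be built into the choice. All 9 of the 10 listed genes that had a row were detected, beside 85.1% of the family. They summed to 1479, 1456 and 1243 CPM in replicates 1, 2 and 3. Beside *Cyp6g1* and *Cyp6d5*, *Cyp28d1*, which has been linked to nicotine resistance, had 173, 204 and 164 CPM, or 112 ± 12.7 per kilobase. *Cyp28a5* had 138, 128 and 109.9 CPM, or 70.8 ± 7.94 per kilobase. *Cyp6w1*, which has been linked to DDT, had 166, 165 and 135 CPM, or 65.0 ± 7.51 per kilobase. All of these were lowest in replicate 3. *Cyp12a4*, a mitochondrial P450 known for resistance to the growth regulator lufenuron, had 87.7, 91.6 and 83.0 CPM, or 51.5 ± 2.52 per kilobase. *Cyp6a2* and *Cyp6a8*, both known from DDT-resistant strains, stood at 39.8 ± 2.75 and 13.8 ± 1.58 CPM per kilobase.

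*Cyp4g15* (FBgn0030304, X, 11477058 to 11483233, plus strand), known from the brain, had 243, 236 and 245 CPM, or 91.7 ± 1.72 per kilobase, the smallest relative spread of the 5 members with the most counts. It was listed with *Cyp4g1* for hydrocarbon synthesis. The 5 genes listed for the nervous system and behaviour were all detected, beside 85.1% of the family. They ranged from even to among the most variable members. *Cyp6a20*, known to act on male aggression from olfactory support cells, had 175, 169.8 and 157 CPM, or 92.9 ± 4.99 per kilobase. *Cyp4d21* (FBgn0031925), also called *sxe1*, is a male-biased gene that acts in courtship. It had 190.3, 205 and 174 CPM, or 104 ± 8.60 per kilobase, and the share of male and female heads is not given. *Cyp4g15*, *Cyp6a20* and *Cyp4d21* overlapped in level per kilobase with at least 1 neighbour each. *Cyp305a1*, of the CYP2 clade, had 69.7, 72.9 and 61.4 CPM, or 37.8 ± 3.29 per kilobase. *Cyp6a17*, known to set temperature preference through the mushroom bodies, was near the floor with 1, 8 and 6 counts. *Cyp4e3*, the remaining gene of this list, varied most between libraries and is described below.

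*Cyp4g1* stood out as absent from the counts. It encodes the oxidative decarbonylase that makes cuticle hydrocarbons in oenocytes, cells of the abdominal body wall, and had 0 counts in each library. The floor of 3 counts is 0.360, 0.408 and 0.476 CPM in replicates 1, 2 and 3, so a level below these would not have been detectable at this depth. *Cyp4g1* (FBgn0010019, X, 467057 to 469335, minus strand, 2279 bases of exon) lies inside the span of *CG32816* on the same strand, which had 106, 75 and 93 counts and shares 0 exon bases with it in the annotation used. How the counting treated genes in such a position is not given in the sources used here, and its part in the 0 was not tested. *Cyp4g15*, the other Cyp4g gene, lay far above the floor of *Cyp4g1* in every library, taking the floor as 3 counts per library. The smallest of these ratios, on raw counts and not per kilobase, was 514-fold.

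The members listed for hormones and cuticle lay near or below the median detected member, which stood at 10.2 CPM per kilobase. *Cyp18a1*, which inactivates ecdysteroids, had 21.5, 26.5 and 26.5 CPM, or 8.15 per kilobase. Of 4 genes listed for cuticle and bristles, 3 were detected, with 37.6 ± 3.74 CPM in sum (SD, n = 3). *Cyp311a1* had 16.7 ± 2.54 CPM, or 10.96 per kilobase, and *Cyp4c3* 15.4 ± 1.44 CPM, or 8.10 per kilobase. *Cyp301a1*, which acts in the formation of adult cuticle, had 5.28, 5.17 and 5.40 CPM, or 2.72 per kilobase, while *Cyp303a1*, needed for sensory bristles, had 0, 2 and 1 counts and was not detected.

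The CYP3 clade held more of the family counts than the rest together. Its 37 members, 33 of them detected, had 56.1% ± 1.05 of the family counts (SD, n = 3) and summed to 2409, 2371 and 2056 CPM in replicates 1, 2 and 3. The 26 members of the CYP4 clade, 21 detected, had 36.5% ± 0.797 and summed to 1496, 1587 and 1361 CPM. All 7 members of the mitochondrial clade were detected, with 5.13% ± 0.262, led by *Cyp12a4*. Of the 4 CYP2 clade members, *Cyp305a1* and *Cyp18a1* were detected, and the clade had 2.30% ± 0.103. The CYP3 clade was the higher one in each library, and CYP3 and CYP4 did not overlap. With *Cyp313a1* left out, the CYP4 share was 27.2% and the CYP3 share 64.3%. Typical members of both clades were alike in level, with medians of 9.19 CPM per kilobase in CYP3 and 8.99 in CYP4, and 8 CYP3 and 5 CYP4 members stood above 50 CPM per kilobase.

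**Figure D2:**
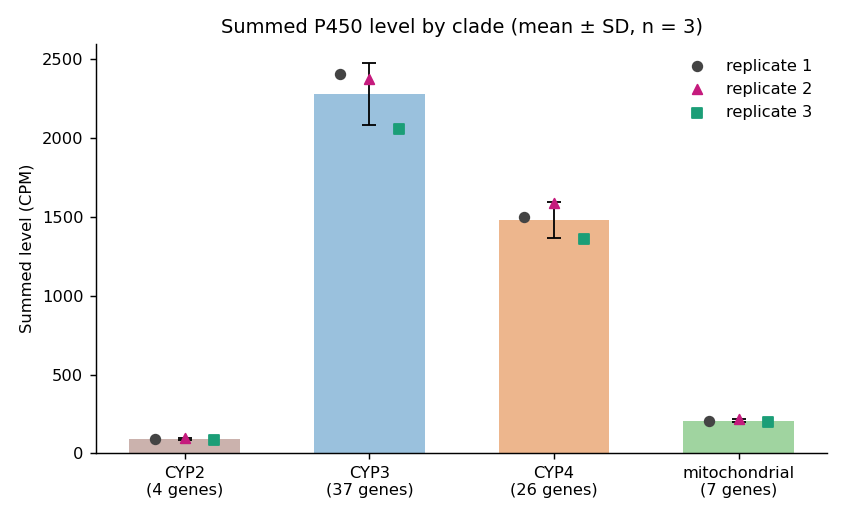
Summed level of the members of each P450 clade in CPM (vertical axis), with bars for the mean, error bars for the SD over 3 libraries and 1 point per replicate. The CYP3 clade averages 2279 CPM and the CYP4 clade 1481 CPM, and replicate 3 is the lowest library in all 4 clades.

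By family number, the 22 Cyp6 genes held 35.3% of the pooled family counts, the 16 Cyp4 genes 23.0%, the 6 Cyp313 genes 12.9%, the 6 Cyp9 genes 11.3%, the 4 Cyp28 genes 7.91% and the 5 Cyp12 genes 4.92%. The Cyp4e genes *Cyp4e2*, *Cyp4e3* and *Cyp4e1* stood at 53.1, 15.5 and 8.44 CPM per kilobase. Among the Cyp9 genes, which are insect P450s of the CYP3 clade, *Cyp9f2* was followed by *Cyp9b2* with 149.5, 160.3 and 127 CPM, or 87.3 ± 10.2 per kilobase.

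Of the 74 members, 37 lie in 14 tandem groups on the genome, with neighbours at most 10 kilobases apart, and 37 stand alone. Levels within a group differed widely. The largest group, on arm 2R (14871366 to 14903095), holds 8 genes in the order *Cyp6a22*, *Cyp6a17*, *Cyp6a23*, *Cyp6a19*, *Cyp6a9*, *Cyp6a20*, *Cyp6a8* and *Cyp317a1*. *Cyp6a20* led it at 92.9 CPM per kilobase, followed by *Cyp6a9* at 34.8 ± 3.14 and *Cyp6a23* at 28.5 ± 2.45, while *Cyp6a19*, next to *Cyp6a9*, had 1, 3 and 1 counts. *Cyp6a19* shares 397 exon bases with *Cyp6a9* on the other strand. In the group of *Cyp9f3* and *Cyp9f2* the levels per kilobase were 27.8-fold apart, in that of *Cyp28d2* and *Cyp28d1* 48.9-fold, and in that of *Cyp309a1* and *Cyp309a2* 1.08-fold.

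**Figure D3:**
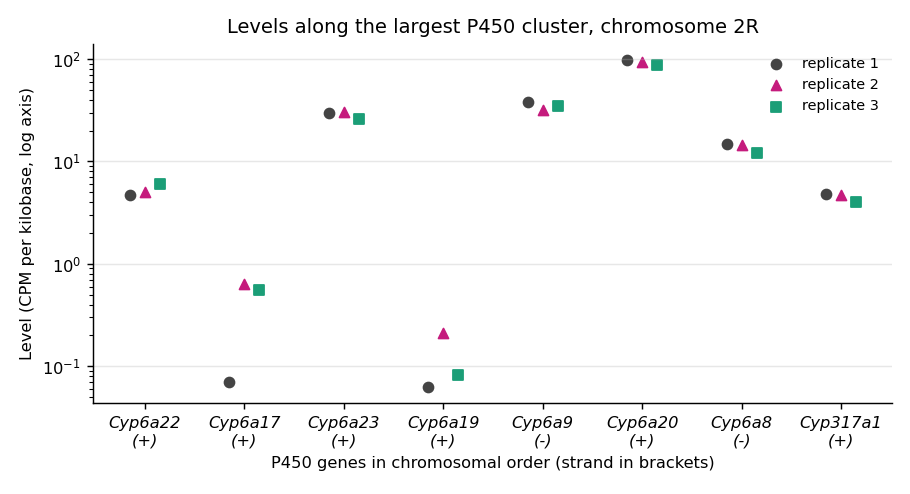
Level of the 8 genes of the largest tandem group in chromosomal order (horizontal axis), in CPM per kilobase of exon (vertical axis, log axis), with 1 point per replicate. *Cyp6a20* averages 92.9, and *Cyp6a17* and *Cyp6a19* of the same group lie below 1 in every library.

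For 8 pairs of genes of the same subfamily, the ratio of the first to the second was taken within each library, as log2 with 0.5 count added to each gene. The sign was the same in 3 of 3 libraries for all 8 pairs, and the two-sided exact sign-flip permutation test gave its smallest possible p, 0.25, for each (adjusted p = 0.25 over the 8 pairs), so no pair could pass the threshold of 0.05 in this design. Per kilobase, the mean log2 ratio was 1.53 ± 0.08 for *Cyp6a2* over *Cyp6a8* (SD, n = 3), 2.94 ± 0.24 for *Cyp12a4* over *Cyp12a5* and 5.59 ± 0.26 for *Cyp28d1* over *Cyp28d2*. It was -1.05 ± 0.13 for *Cyp4p1* over *Cyp4p2* and -2.14 ± 0.30 for *Cyp4d1* over *Cyp4d2*. In each of these pairs the ratio moved little between libraries beside its size. *Cyp4d2* shares 98.7% of its exon bases with the antisense gene *asRNA:CR44690* on the other strand, and where counting ignores strand, reads of such partners cannot be told apart. The counts of these partners were unequal, 1252 for *Cyp4d2* and 211 for the antisense gene, and the handling of strand was not tested.

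The pair *Cyp6a17* and *Cyp6a23* are neighbouring duplicates known for their close sequence, so the split of reads between them is uncertain. *Cyp6a17* took 1 of the pair's counts in replicate 1, 0.230% (95% exact interval 0.00582 to 1.27), 2.01% (0.870 to 3.91) in replicate 2 and 2.06% (0.760 to 4.43) in replicate 3. *Cyp6a23* had 434, 391 and 285 counts, so nearly all counts of the pair went to it in every library. The mean log2 ratio of *Cyp6a17* over *Cyp6a23* was -6.36 ± 1.55 per kilobase.

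*Cyp6g1* and *Cyp6g2* also lie side by side, with 94 shared exon bases on opposite strands. *Cyp6g2* (FBgn0033696, 2R, 12188338 to 12190377, minus strand), known from the corpora allata, the glands that make juvenile hormone, had 3, 7 and 53 counts. It took 0.0810% of the pair's counts in replicate 1 (95% exact interval 0.0167 to 0.237), 0.230% (0.0923 to 0.472) in replicate 2 and 2.32% (1.74 to 3.02) in replicate 3. The log2 ratio of *Cyp6g1* over *Cyp6g2* was 10.05, 8.66 and 5.38 on raw counts, and replicate 3 stood apart from the others.

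Spread between libraries was tested across all genes, with an edgeR fit that set each gene's spread over the replicates against the spread usual at its level. Of 9049 genes that passed the filter on low counts, 58 were members, and 5 detected members did not pass it (*Cyp6g2*, *Cyp313b1*, *Cyp4d14*, *Cyp6d2* and *Cyp6a17*). A single member was called at an adjusted p under 0.05, *Cyp4e3*, which is 1.72% of those tested against a background of 0.32%. At an unadjusted p under 0.05 there were 2 members, *Cyp4e3* and *Cyp309a1*, which is 3.45% against 4.64%. A single call is too few to set the family apart from other genes.

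*Cyp4e3* (FBgn0015035, 2L, 9747839 to 9750071, minus strand), known to protect Malpighian tubules from the pyrethroid permethrin, had 203, 374 and 53 counts, or 24.4, 50.9 and 8.41 CPM. The Wilson 95% intervals, 21.2 to 27.95, 46.0 to 56.3 and 6.43 to 11.004 CPM, did not overlap. Replicate 2 was the highest and replicate 3 the lowest, 5.83-fold apart after TMM scaling (edgeR quasi-likelihood replicate test, adjusted p = 0.0182). Without replicate 2 the mean level was 16.4 CPM, against 27.9 over all 3 libraries. Its relatives *Cyp4e2* (103, 116 and 83.7 CPM) and *Cyp4e1* (17.0, 14.8 and 13.0 CPM) spread less. Single genes of other tissues were picked after these values were seen. *FASN2*, a fatty acid synthase gene of oenocytes, had 2.04, 3.95 and 0.952 CPM, in the same order of libraries as *Cyp4e3*. The oenocyte list as a whole summed to 1563, 1670 and 1706 CPM and was highest in replicate 3. That sum came mostly from *Desat1*, which other tissues also express, so it says little about oenocytes. *Amy-p*, an amylase gene of the gut, had 2.88, 27.4 and 2.22 CPM, and *Lsp2*, a storage protein gene of the fat body, had 150.3, 130.1 and 31.0 CPM. The Malpighian tubule list summed to 148, 136 and 130 CPM with *Uro* at 0. The part of these tissues in the spread of *Cyp4e3* was not tested.

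*Cyp309a1*, for which no role is given here, had 23.4, 20.5 and 11.1 CPM and did not pass the threshold (edgeR, adjusted p = 0.459). It passed with replicate 2 left out (adjusted p = 0.00150) and without the filter on low counts (adjusted p = 0.0440). Its tandem neighbour *Cyp309a2* had 19.1, 16.1 and 11.9 CPM, with the libraries in the same order. Both ends of that order are common in the family. On TMM-scaled CPM, 31 of the 58 tested members (53.4%) were highest in replicate 1, against 30.6% of all tested genes. In replicate 3, 40 of them (69.0%) were lowest, against 34.8%.

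*Cyp6g2* had the widest range of all detected members, a log2 difference of 2.80 on TMM-scaled CPM with 1 added, ahead of *Cyp4e3* at 2.41, *Cyp309a1* at 1.02, *Cyp6a17* at 0.88 and *Cyp313b1* at 0.78. Its CPM were 0.360, 0.952 and 8.41, and the Wilson 95% interval in replicate 3, 6.43 to 11.004, lay above those of the other libraries. Too low for the filter, it was called in a fit without one (edgeR, adjusted p = 0.000275), in which 0.914% of 12909 genes were called. Without replicate 3 its mean was 0.656 CPM, against 3.24 over all libraries. Of genes of neighbouring glands, chosen after these values were seen, *Akh*, the adipokinetic hormone gene of the corpora cardiaca, had 1, 0 and 44 counts, and *jhamt*, a juvenile hormone synthesis gene of the corpora allata, had 27, 20 and 27. *Act88F*, the flight muscle actin of the thorax, had 26, 23 and 116 counts. The muscle list as a whole summed to 5601, 4559 and 5192 CPM and *Mhc*, the muscle myosin heavy chain gene, had 4007, 3257 and 3513 CPM, both highest in replicate 1. Replicate 3 thus stood apart for *Akh* and *Act88F* as it did for *Cyp6g2*, but not for *jhamt*, *Mhc* or the muscle list, and the part of glands or thorax tissue carried with the heads was not tested.

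**Figure D4:**
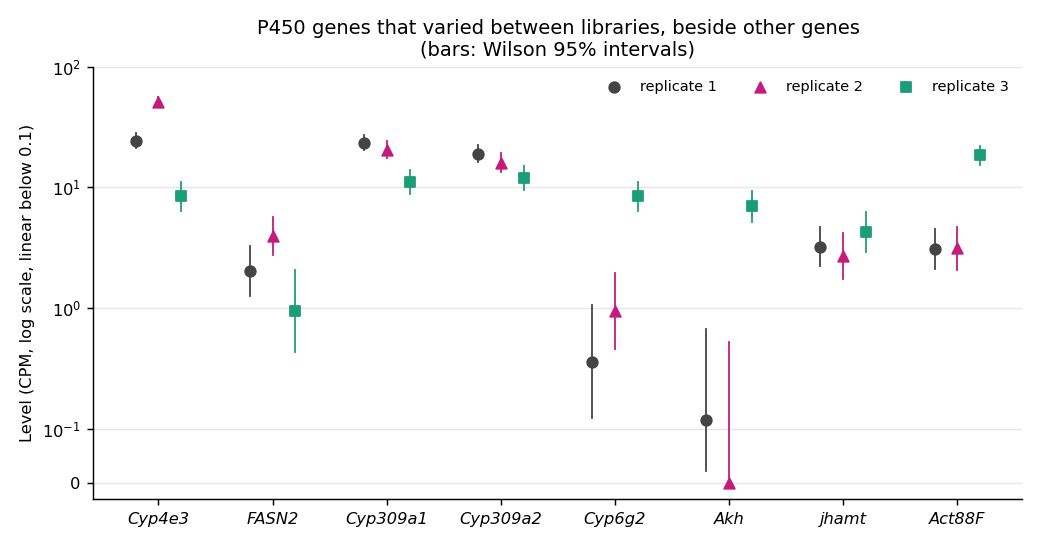
Level in CPM (vertical axis, log scale, linear below 0.1) of the P450 genes with the most variable replicates, beside genes of other tissues, with 1 point per replicate and bars for Wilson 95% intervals. *Cyp4e3* runs from 8.41 in replicate 3 to 50.9 in replicate 2, and *Cyp6g2* and *Akh* are high in replicate 3 only.

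The tested members as a whole, *Cyp4e3* and *Cyp309a1* included, leaned one way. Of the 58 tested members, 40 (69.0%) were lowest in replicate 3 on TMM-scaled CPM, against 34.8% of all tested genes, and 31 (53.4%) were highest in replicate 1, against 30.6%. The median log2 difference of replicate 3 from the mean of replicates 1 and 2 was -0.17 for the members and -0.005 for all tested genes. The sizes were small: the median log2 range over libraries was 0.27 for members and 0.22 for all tested genes. Members are not independent of each other, and with 3 libraries the lean describes these libraries only. The list of olfactory support cell markers was lowest in replicate 3 as well (3335, 3519 and 2719 CPM), the neuronal list was highest there (3525, 3162 and 3736 CPM), and the head fat body list was highest in replicate 2 (20765, 30277 and 22425 CPM), and their part in the lean of the P450 genes was not tested.

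**Figure D5:**
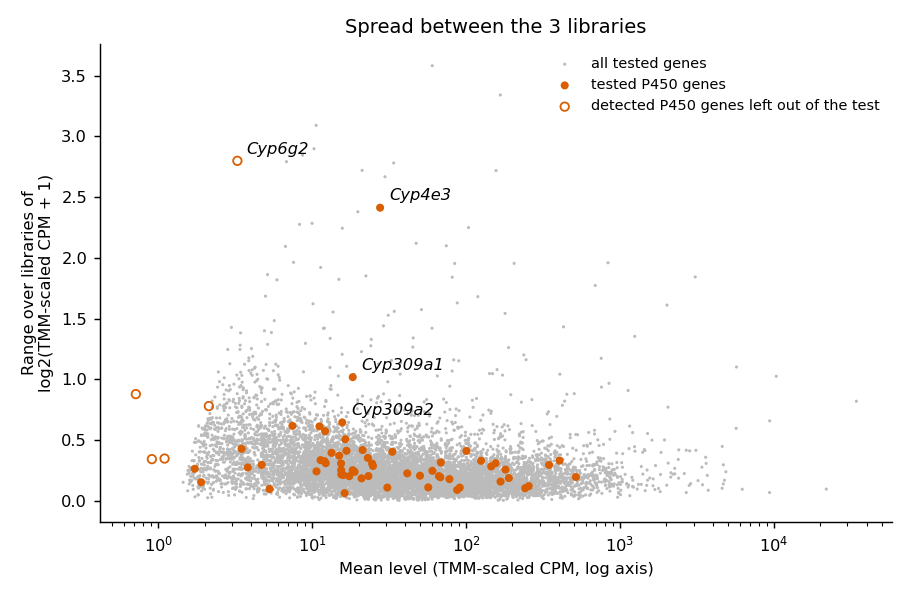
Range over the 3 libraries of log2(TMM-scaled CPM + 1) (vertical axis) against the mean TMM-scaled CPM (horizontal axis, log axis) for all 9049 tested genes (grey), the 58 tested P450 genes (filled) and the 5 detected P450 genes left out of the test (open). The median is 0.27 for the tested P450 genes and 0.22 for all tested genes, and *Cyp4e3* at 2.41 and *Cyp6g2* at 2.80 are the highest P450 genes.

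Some members were steady. *Cyp4d8* had 16.2, 16.2 and 16.4 CPM, with a log2 range of 0.06 on the TMM scale. *Cyp4p2* had 93.1, 89.9 and 89.5 CPM, or 51.1 ± 1.11 per kilobase.

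Of the P450 genes outside the symbol rule, 14 had a row and 8 were detected. *Cyp4ac1*, *Cyp4ac2* and *Cyp4ac3* stood at 46.6 ± 6.51, 21.7 ± 3.96 and 4.72 ± 0.800 CPM per kilobase, *Cyp4aa1* at 9.995 ± 1.14 and *Cyp4ae1* at 5.44 ± 0.462. *Cyp4ad1* had 2 counts in all. *Cyp12d1-d* and *Cyp12d1-p*, near-identical copies between which reads cannot be split with certainty, had 0 and 5 counts. The Halloween genes encode the enzymes that make ecdysone, mostly in the larval prothoracic gland. Of the 7 listed, 6 had a row, all of them P450 genes, and 3 were detected. The remaining one, *nvd*, was not counted among the P450 genes. The enzyme that makes the active hormone in peripheral tissues, *shd*, had 26, 12 and 24 counts, *phtm* had 8, 10 and 9, and *sad* 4, 3 and 4. By contrast *spo* had 0 counts and *spok* and *dib* 2 each. The pseudogenes *Cyp6a15Psi* and *Cyp6t2Psi* had 23 and 25 counts.

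The electron donors of these enzymes were all detected. *Cpr*, the reductase that serves the P450 enzymes of the endoplasmic reticulum, had 286, 299.8 and 280.0 CPM, or 86.3 ± 3.04 per kilobase, close to *Cyp9b2* and below the highest member. *Cyt-b5*, which can hand over the second electron, stood at 215 ± 19.7 CPM per kilobase. On the mitochondrial side, the ferredoxins *Fdx2* and *Fdx1* stood at 33.8 ± 2.81 and 9.11 ± 1.36 CPM per kilobase and the ferredoxin reductase *dare* at 8.25 ± 0.225. The 5 genes summed to 531, 567 and 509 CPM. The sum was lowest in replicate 3, as were *Cpr*, *Cyt-b5* and *Fdx2*, whereas *dare* was highest there and *Fdx1* was lowest in replicate 1.

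Exon overlap may limit some of the values above, for genes on opposite strands only where counting ignored strand. By the annotation used, 19 members share exon bases with another counted gene, 1 of them on the same strand (*Cyp6u1* with *Ufsp1*, 80 bases). In 4 members the shared part exceeds 50% of the exon bases: *Cyp4d2*, *Cyp9c1* with 98.2%, *Cyp4d14* with 96.2% and *Cyp6d2* with 50.99%. *Cyp4d14* had 24 counts in all, against 675 for the antisense gene *asRNA:CR45479* over it. *Cyp9c1* had 365, against 4 for *asRNA:CR43787*.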

How the data were processed

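Total RNA of heads was extracted with QIAzol, and 150 ng per library went into the TruSeq Stranded mRNA kit. The authors deposited raw read counts per gene, made with STAR 2.7.4a and Subread featureCounts on dm6 per the submitters' processing notes. The methods name the snakePipes RNA-seq module and an Ensembl annotation. How strand and reads with several matches were handled is not given in the sources used here. No column of per-sample values was left unused (0).

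From the deposited counts, CPM were computed over the library total (8332583, 7349123 and 6299265 counts in replicates 1, 2 and 3). Symbols, coordinates and exon lengths (union of exons) came from Ensembl release 115 on the dm6 assembly, which matched 17252 of 17558 IDs and left 306 without a symbol. Exon boundaries of that release can differ from those used for counting. The replicate test used edgeR 4.0.16 (R 4.3.3) with TMM scaling (factors 0.985, 1.03 and 0.989), filterByExpr and an intercept-only design. Each quasi-dispersion was divided by its prior and read against an F distribution (upper tail), with Benjamini-Hochberg adjustment over all 9049 genes and a threshold of 0.05, and the biological coefficient of variation was 0.100. The code was tested on simulated data. Ratios of gene pairs went into an exact sign-flip permutation test (two-sided). Wilson and exact (Clopper-Pearson) 95% intervals and floors of 3 counts cover counting error only, since reads were counted without molecular identifiers.

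Named members were the 25 with the highest mean CPM, any called by the replicate test, the 5 with the largest range, those of the 8 pairs, those beside the detection limit and those of the role lists; others serve as context. The members, lists and pairs were chosen with earlier results of these data known. Alternatives were DESeq2 1.42.0 (size factors and dispersion outliers), other detection limits, no filter, values per kilobase, a pseudocount of 1, leaving out the most abundant member or the mitochondrially encoded genes, and leaving out each library. Sequences of the members were not used here.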

Additional observations from a re-analysis of the deposited data

How the results depend on the processing

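Of 352 alternative values over 66 results, 322 were labelled the same, 30 were not, and 0 reversed. Levels and shares counted as the same within the SD over libraries, and counts and the median range within a set fold. Ratios did so at the same sign, and tests of single genes on the same side of the threshold. Leaving out 1 of 3 libraries cannot move a mean beyond that SD, so it tests nothing for levels and shares. Without the leave-one-out values, 152 of 175 were the same. Many of these labels could hardly have come out otherwise. TMM factors lay near 1 and DESeq2 factors were rescaled to the same total, so neither could shift a mean level much. Ratios were labelled on sign alone, which exon length or a pseudocount could hardly reverse at their size. The count of same values is therefore no measure of robustness. Per kilobase of exon the summed level was 2208 CPM per kilobase, the share of the most abundant member 14.4%, that of the top 5 44.4%, that of the CYP2 clade 2.09% and that of the mitochondrial clade 5.41%. Without the most abundant member, *Cyp313a1*, the shares were 64.3% for CYP3, 27.2% for CYP4, 5.88% for the mitochondrial clade and 2.63% for CYP2. These follow from the construction of the alternatives. The replicate test called 1 member, against 2 as DESeq2 dispersion outliers (*Cyp4e3* and *Cyp6g2*), 3 without a filter (*Cyp309a1* as well) and 1 to 2 with a library left out, where *Cyp309a1* was added without replicate 2. Calls over all genes were 29 in the reported fit, 113 and 118 in the first 2 alternatives, in which 12909 genes were tested, and 44 to 57 with a library left out. *Cyp4e3* was called in every edgeR alternative run (adjusted p 4.07e-07 to 0.0247). Between 58 and 71 members were detected under the other limits. Leaving out mitochondrially encoded genes, which shortens the library total, moved the levels of 9 of the 38 named members with a count by more than their spread. In alternatives added after the data were seen, 42 members (72.4%, against 38.6% of all tested genes) were lowest in replicate 3 on CPM and 40 with DESeq2 size factors. The median range was 0.18, 0.23 and 0.11 for members without replicates 1, 2 and 3, against 0.15, 0.12 and 0.13 for all tested genes, so the excess of the members is not seen without replicate 3. No paired analysis was possible because there was 1 group. Depth limits what can be said of the 11 members under 10 counts.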
